A study of Rattus norvegicus with 12 samples.

Results

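Metallothionein and zinc-handling transcripts were followed in rat liver through 5 genes: the metallothioneins Mt1 and Mt2A, the zinc exporter Slc30a1, the zinc importer Slc39a14 and the zinc-sensing transcription factor Mtf1. They are 5 of the 13892 gene symbols with a probe set on the array, and they were chosen because both metallothioneins were lower in the fed groups than at 0h in these data. Every probe set carrying one of the symbols was taken, 8 in all, and all 8 passed the filter on dim probe sets that 21729 of 31042 passed. The arrays came from Sprague-Dawley rats, each labelled 12 weeks old, and from the middle of the right liver lobe. The group called 0h held 3 arrays of normal liver without feeding, and 3 groups of 3 arrays each held liver after 2, 4 and 6 weeks of a high-fat emulsion, given to produce a nonalcoholic fatty liver. The labels call the 3 arrays of a group technical replicates and do not give the number of rats, so SDs, SEs and p-values here measure only the spread between arrays. As 0h was the only unfed group, the feeding itself, the passage of time and whatever else set the 0h arrays apart cannot be told apart.

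Metallothioneins are small, cysteine-rich proteins that bind zinc and copper and, in liver, hold a store of zinc that can be released. In mammals their transcription is driven by Mtf1, which binds metal response elements in DNA when free zinc rises, and in rodent liver also by glucocorticoids and by inflammatory signals such as interleukin-6. Slc30a1 carries zinc out of the cell and is itself a target of Mtf1 in the mouse, whereas Slc39a14 brings zinc, iron and manganese in and is raised by interleukin-6 in mouse liver.

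Promoters are shown for the genes whose transcripts were below 0h on every fed array and which are known targets of Mtf1, as the start-site regions in which its elements lie. Each is 300 bases from RefSeq on build GRCr8, printed 5′ to 3′ on the gene's own strand, and capitals mark the core of a metal response element, TGCACNC or TGCGCNC, on either strand. Mt1 lies at chr19:10832926-10833225 on the minus strand, Mt2A at chr19:10838659-10838958 on the minus strand, and Slc30a1 at chr13:106021769-106022068 on the plus strand.
Mt1: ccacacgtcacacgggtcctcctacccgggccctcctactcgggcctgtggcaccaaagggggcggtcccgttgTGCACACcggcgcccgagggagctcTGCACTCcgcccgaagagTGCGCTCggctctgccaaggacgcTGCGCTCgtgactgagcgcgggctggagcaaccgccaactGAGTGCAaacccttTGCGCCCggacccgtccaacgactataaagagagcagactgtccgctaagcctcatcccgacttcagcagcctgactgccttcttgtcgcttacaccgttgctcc
Mt2A: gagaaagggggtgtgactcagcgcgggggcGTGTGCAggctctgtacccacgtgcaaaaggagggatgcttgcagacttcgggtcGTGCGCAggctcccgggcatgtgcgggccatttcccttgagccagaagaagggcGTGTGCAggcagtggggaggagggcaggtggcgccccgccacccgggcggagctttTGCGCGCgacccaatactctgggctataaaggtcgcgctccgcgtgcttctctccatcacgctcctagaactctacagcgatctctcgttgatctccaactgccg
Slc30a1: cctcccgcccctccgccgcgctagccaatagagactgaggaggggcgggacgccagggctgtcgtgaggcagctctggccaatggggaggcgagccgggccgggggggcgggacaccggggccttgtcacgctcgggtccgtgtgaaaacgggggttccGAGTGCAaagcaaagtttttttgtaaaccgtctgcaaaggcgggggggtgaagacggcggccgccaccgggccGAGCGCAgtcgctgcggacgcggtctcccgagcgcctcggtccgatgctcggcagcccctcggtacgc
The Mt1 window held 6 matches, 5 on the gene's own strand, at first bases -176, -151, -133, -109, -69 and -55 relative to the transcription start. The Mt2A window held 4, at -220, -165, -111 and -55, of which 3 were on the other strand. Slc30a1 had 2, at -91 and -18, both on the other strand, and the window of Mtf1 on chromosome 5 also had 2. No matches overlapped. Of all 33469 promoter windows of this length, 24.2% held at least 1 match, 6.36% at least 2, 0.439% at least 4 and 0.0388%, 13 windows, at least 6. A match is a run of letters and not evidence of binding. In RefSeq's order along chromosome 19, Mt1 and Mt2A stand next to each other, between Nup93 and Mt3.

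Each array had 1 signal intensity per probe set, scaled by the authors so that all arrays shared a trimmed mean of 500.0, with medians of 117.6 to 130.0. The number of arrays limits the precision: the median SD within groups was 0.21 on the log2 scale. Hepatocyte markers, 10 of 10 above the dim level in every group, had summed signals of 326270 to 381005 at 0h and 310388 to 399311 on the fed arrays. The 0h arrays stood apart in other transcripts. The female-biased hydroxylase Cyp2c12 had signals of 31864 to 36489 at 0h and 420 to 1831 on the fed arrays. The male-specific Cyp2c11 had signals of 19903 to 21170 at 0h and, higher, 29880 to 37399 on the fed arrays. The clock repressor Nr1d1 had signals of 652 to 786 at 0h and 32 to 67 on the fed arrays. The pancreatic enzyme Cpa1 lay between 6044 and 6538 at 0h, whereas 6 of 15 pancreas markers, among them Prss2, Ctrb1 and Cel, were dim on all 3 of these arrays; summed signals of the 15 were 23768 to 25317 at 0h and 19909 to 26121 on the fed arrays. The GAPDH 3′ to 5′ log2 ratio, a measure of RNA integrity, was 0.11 to 0.25 at 0h and 0.28 to 0.49 on the fed arrays, while that of actin overlapped, at 1.1 to 1.44 and 0.98 to 1.51. The part of these differences in the results below was not tested.

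Mt1 was lower in all fed groups than at 0h, most at 4 weeks. Its bright probe set had signals of 33510, 38519 and 31546 at 0h, then 13444, 13768 and 13238 after 2 weeks, 6466, 6219 and 5943 after 4 weeks and 12028, 11384 and 10747 after 6 weeks. All 9 fed arrays lay below all 3 arrays of 0h, and no 2 groups overlapped. The mean signal was 34525 ± 3600 (SD, n = 3) at 0h, then 13484 ± 267 after 2 weeks, 6209 ± 262 after 4 weeks and 11386 ± 640 after 6 weeks. On the log2(signal + 1) scale, used for all differences here, 2 weeks lay below 0h by 1.35 ± 0.09 (SE), or 2.55-fold. The difference from 0h was -2.47 ± 0.09 at 4 weeks, 5.54-fold, and -1.60 ± 0.10 at 6 weeks, 3.02-fold. These differences chose the gene and are given without a test. In bulk tissue, fewer cells of a type and less RNA per cell cannot be told apart.

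The course of Mt1 among the fed groups was not monotonic. From 2 to 4 weeks its level differed by -1.12 ± 0.04, 2.17-fold, and from 4 to 6 weeks by 0.87 ± 0.06, 1.83-fold upward. At 6 weeks it was still below 2 weeks by a log2 difference of -0.25 ± 0.05, without overlap, which puts the levels in the order 0h, 2 weeks, 6 weeks, 4 weeks from high to low. A second, dim probe set had signals of 166, 146 and 203 at 0h, then 82.0, 64.6 and 60.1 after 2 weeks, 92.8, 85.7 and 101 after 4 weeks and 34.3, 49.5 and 74.0 after 6 weeks. It too was below 0h on all fed arrays, with differences of -1.31 ± 0.19, -0.87 ± 0.15 and -1.74 ± 0.34. Its steps among fed groups ran opposite to the bright probe set, 0.44 ± 0.15 from 2 to 4 weeks and -0.88 ± 0.32 from 4 to 6 weeks. RefSeq lists further metallothionein copies and pseudogenes, and signal from near-identical transcripts cannot be separated here.

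Mt2A, the other abundant hepatic metallothionein, was likewise lower in all fed groups than at 0h and lowest at 4 weeks. Its probe set had signals of 16296, 16303 and 15764 at 0h, then 3682, 3697 and 3557 after 2 weeks, 1914, 1936 and 1821 after 4 weeks and 3739, 3641 and 3764 after 6 weeks. Again all 9 fed arrays lay below 0h, and 2 and 6 weeks overlapped each other but neither overlapped 4 weeks. Group means were 16121 ± 309 (SD, n = 3), 3645 ± 76.9, 1890 ± 61.1 and 3715 ± 65.0. The differences from 0h were -2.14 ± 0.02 (SE), -3.09 ± 0.03 and -2.12 ± 0.02 at 2, 4 and 6 weeks, or 4.42-fold, 8.53-fold and 4.34-fold lower. Like those of Mt1, these differences chose the gene and are given without a test. The log2 level changed by -0.95 ± 0.03 from 2 to 4 weeks and by 0.97 ± 0.03 from 4 to 6 weeks, while 6 and 2 weeks differed by 0.03 ± 0.02.

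**Figure D1:**
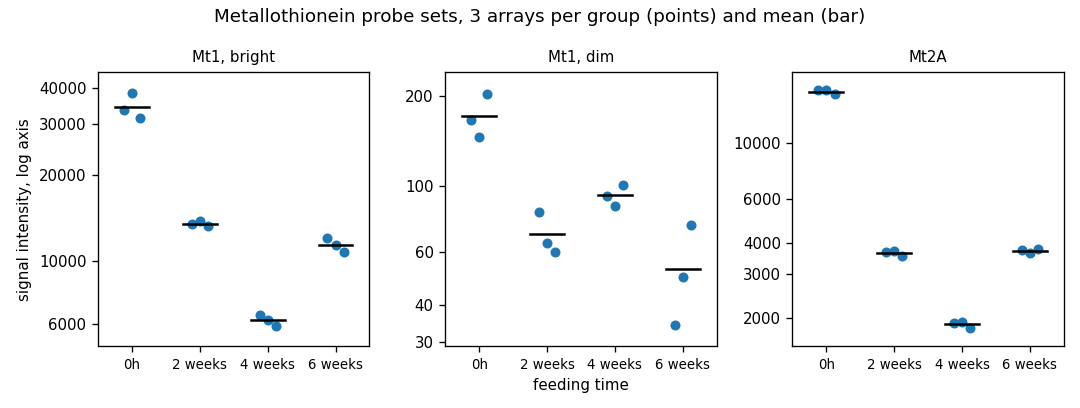
Signal intensity (log axis) of the 3 metallothionein probe sets at 0h and after 2, 4 and 6 weeks of feeding; points are arrays, 3 per group, and bars are group means. For Mt2A the 0h arrays lie at 15764 to 16303 and the 4-week arrays at 1821 to 1936, and for both bright probe sets 4 weeks is the lowest group.

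The spacing of the bright metallothionein probe sets was also read within each array. Within an array, the log2 signal of Mt2A minus that of the bright Mt1 probe set was -1.04, -1.24 and -1.0 at 0h. It was -1.87, -1.90 and -1.90 after 2 weeks, -1.76, -1.68 and -1.71 after 4 weeks and -1.69, -1.64 and -1.51 after 6. All fed arrays lay below all 0h arrays. The value compares different probe sets, on the contrast that chose the genes, and does not say which transcript was more abundant or fell more. The mean log2 signal of Mt1 at 0h, 15.07, lay close to those of the abundant hepatocyte transcripts Ttr (15.10) and Tf (15.52), near the top of the array's range, and whether levelling off of the signal there made the Mt1 difference smaller was not tested.

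Slc30a1, the exporter, was also below 0h in every fed group. Its signals were 1259, 1227 and 1120 at 0h, then 696, 713 and 746 after 2 weeks, 587, 781 and 656 after 4 weeks and 865, 928 and 857 after 6 weeks. No fed array reached the lowest 0h array, while 2 and 4 weeks overlapped and 6 weeks lay above both. Its differences from 0h were -0.74 ± 0.06 (SE, n = 3 arrays per group), -0.84 ± 0.13 and -0.44 ± 0.06, or 1.67-fold, 1.79-fold and 1.36-fold lower. Given the choice of genes, these are a description.

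The probe sets of Slc39a14, the importer, disagreed. The brighter probe set had signals of 3747, 2958 and 3364 at 0h, then 3511, 3888 and 3734 after 2 weeks, 3288, 2882 and 2865 after 4 weeks and 3562, 3244 and 3379 after 6 weeks. All of its fed groups overlapped 0h, with differences of 0.15 ± 0.11, -0.15 ± 0.12 and 0.02 ± 0.11; the last turned negative under quantile normalization. The dimmer probe set had signals of 1249, 1371 and 1205 at 0h, then 943, 1005 and 1054 after 2 weeks, 794, 743 and 785 after 4 weeks and 875, 764 and 817 after 6 weeks. None of its fed groups overlapped 0h, and its differences were -0.35 ± 0.07, -0.72 ± 0.06 and -0.64 ± 0.08. Which part of the transcript each probe set reads was not analysed here.

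Mtf1 itself differed little from 0h. Its brighter probe set had signals of 754, 829 and 916 at 0h, then 846, 718 and 824 after 2 weeks, 704, 680 and 660 after 4 weeks and 734, 671 and 666 after 6 weeks. The 2-week arrays overlapped 0h (-0.06 ± 0.11), and those of 4 and 6 weeks lay just below it, at -0.29 ± 0.09 and -0.27 ± 0.09. Its dimmer probe set had signals of 158, 123 and 120 at 0h, then 77.3, 135 and 107 after 2 weeks, 124, 98.1 and 97.2 after 4 weeks and 190, 150 and 112 after 6 weeks, with all groups overlapping 0h. Its differences were -0.35 ± 0.26, -0.32 ± 0.17 and 0.15 ± 0.25. The transcript of a factor that zinc activates as a protein does not measure its activity.

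**Figure D2:**
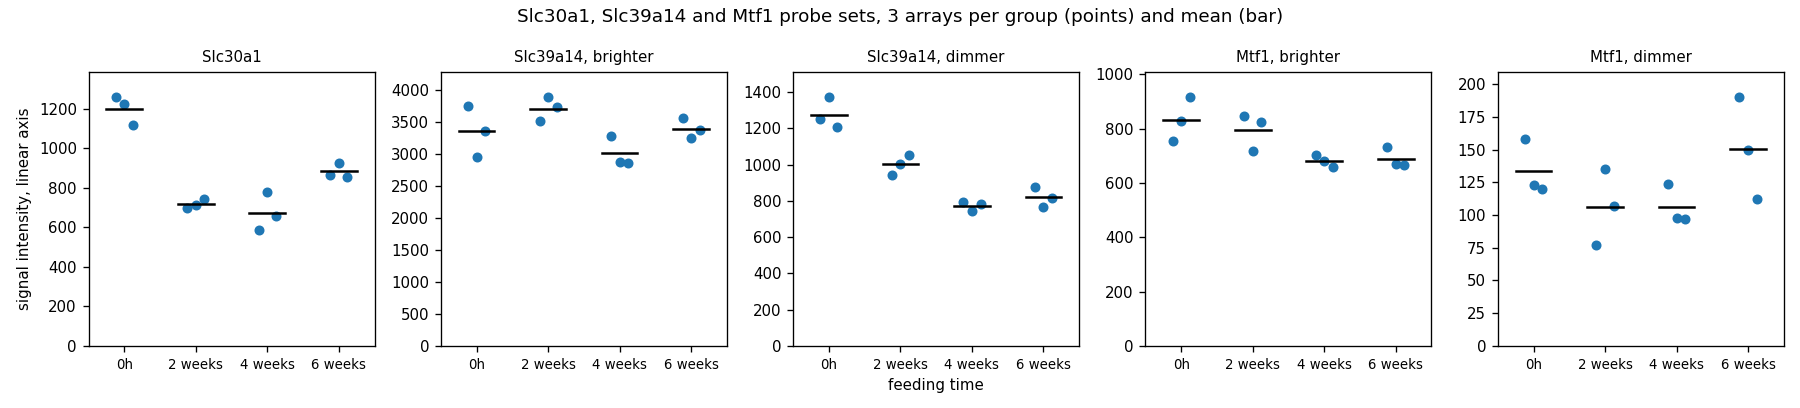
Signal intensity (linear axis from 0) of the Slc30a1, Slc39a14 and Mtf1 probe sets by feeding time; points are arrays, 3 per group, and bars are group means. Slc30a1 and the dimmer Slc39a14 probe set lie below all 0h arrays on every fed array, whereas the brighter Slc39a14 and the dimmer Mtf1 probe set overlap 0h throughout.

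Across the 8 probe sets, 5 had all 9 fed arrays below all 3 arrays of 0h: both of Mt1, that of Mt2A, that of Slc30a1 and the dimmer one of Slc39a14. Of all probe sets tested, 10.0% did so, and since the genes were chosen on this contrast nothing is read from the count.

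**Figure D3:**
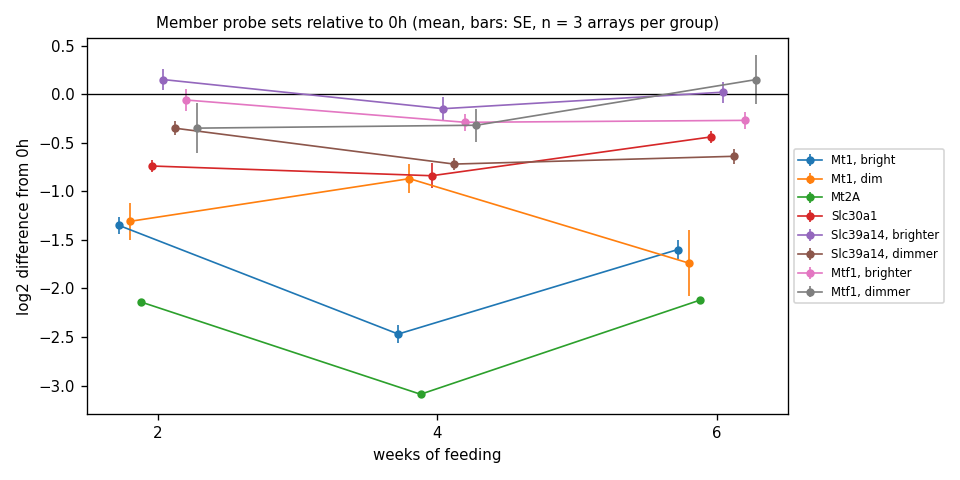
Mean log2 difference from 0h (y axis) against weeks of feeding (x axis, points shifted sideways for legibility) for the 8 probe sets; bars are SE, n = 3 arrays per group. Mt2A reaches -3.09 and the bright Mt1 probe set -2.47 at 4 weeks, and the Mtf1 and Slc39a14 probe sets stay between -0.72 and 0.15.

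Slc30a1, Slc39a14 and Mtf1 were tested in the step from 4 to 6 weeks, which does not use 0h and in which the bright metallothionein probe sets did not fall (limma, p adjusted over 21729 probe sets). The dim Mt1 probe set did fall in it, by -0.88 ± 0.32. Across the array 6.09% of probe sets passed, 3.44% upward. None of the 5 probe sets of these genes did, and 1 had an unadjusted p under 0.05, that of Slc30a1. The share of all probe sets at that unadjusted threshold was not counted. Slc30a1 was 1.32-fold higher at 6 than at 4 weeks (0.40 ± 0.10, 95% interval 0.17 to 0.63, adjusted p = 0.0551). It passed in 4 of 21 alternative settings, among them without the highest 4-week array (0.51, adjusted p = 0.0173), and its adjusted p ranged from 0.0148 to 0.158. Slc39a14 had differences of 0.17 ± 0.10 (95% interval -0.05 to 0.40, adjusted p = 0.377) and 0.08 ± 0.08 (-0.10 to 0.26, adjusted p = 0.659). Mtf1 had 0.02 ± 0.09 (-0.19 to 0.23, adjusted p = 0.945; the sign turned under quantile normalization and median centring) and 0.47 ± 0.24 (-0.06 to 1.01, adjusted p = 0.314). They were not tested where a bright metallothionein probe set fell between fed groups, from 2 to 4 weeks and, for Mt1, from 2 to 6 weeks, since the genes were chosen for such falls. Mt1 and Mt2A moved upward from 4 to 6 weeks by 0.87 and 0.97, after differences of -1.12 and -0.95 in the step before, so the tested step is not free of that choice.

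The list of the Slc30 exporter and Slc39 importer families held 16 genes with a probe set besides the members, 7 exporters and 9 importers, and few of them were called. At 4 weeks 2 of 16 genes were higher and none lower than 0h, beside 12.4% higher and 13.2% lower among all 11326 genes taken as 1 probe set each, so that the share higher was close to that of all genes. At 6 weeks the count was 1 higher and none lower (12.6% and 10.6% of all genes). At 2 weeks none was called in either direction by limma (13.6% and 10.9%). With an unadjusted p under 0.05, 4 were higher and 1 lower at 2 weeks. The share of all genes at that unadjusted threshold was not counted, so nothing is read from these numbers. The called genes were Slc39a4 and Slc39a8, both importers; a difference between importers and exporters was not tested. Slc39a4, the importer whose loss causes the zinc deficiency disease acrodermatitis enteropathica in people, had signals of 800, 612 and 918 at 0h, then 846, 855 and 953 after 2 weeks, 1764, 1845 and 1429 after 4 weeks and 1302, 1274 and 1340 after 6 weeks. The 2-week arrays overlapped 0h, and the 4-week and 6-week arrays lay above both. It rose 2.18-fold at 4 weeks (1.12 ± 0.15, adjusted p = 0.000669) and 1.70-fold at 6 weeks (0.77 ± 0.15, adjusted p = 0.00552) against 0h, and 1.89-fold from 2 to 4 weeks (0.92 ± 0.15, adjusted p = 0.00528).

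Slc39a8, an importer of zinc and manganese close in sequence to Slc39a14, was the other. Its signals were 2343, 2502 and 2449 at 0h, then 2668, 2797 and 2770 after 2 weeks, 3058, 3203 and 3253 after 4 weeks and 2688, 2633 and 2408 after 6 weeks. The 4-week arrays were the highest, and only those of 6 weeks overlapped 0h. It rose 1.30-fold at 4 weeks against 0h (0.38 ± 0.07, adjusted p = 0.00319) and fell 1.23-fold from 4 to 6 weeks (-0.30 ± 0.07, adjusted p = 0.0289). The latter call was lost in 7 of 22 alternatives, up to an adjusted p of 0.0987. Both genes had their highest mean signal at 4 weeks, when the bright Mt1 probe set, Mt2A and Slc30a1 had their lowest and the dim Mt1 probe set its highest among the fed groups. For Slc30a1 the 4-week arrays overlapped those of 2 weeks (-0.10 ± 0.12).

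The median log2 change of the list was 0.01, 0.02 and 0.08 at 2, 4 and 6 weeks, against -0.02, -0.05 and -0.02 for all probe sets. From 2 to 4 weeks 1 gene rose (3.51% of all genes rose and 6.15% fell) and from 4 to 6 weeks 1 fell (4.55% and 2.92%). Between 6 and 2 weeks none was called (3.44% and 4.39%). With an unadjusted p under 0.05, 1 was higher and 1 lower, a threshold at which all genes were not counted. Slc39a10, an importer of the plasma membrane, did not pass at 2 weeks (0.31 ± 0.11, adjusted p = 0.0819), nor did Slc39a5 (-1.32 ± 0.76, adjusted p = 0.258), whose arrays spread widely. Of the other metallothioneins, the brain form Mt3 was too dim to test, and Mt4, found in stratified epithelium, had signals of 18.0 to 89.8 and was not called.

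**Figure D4:**
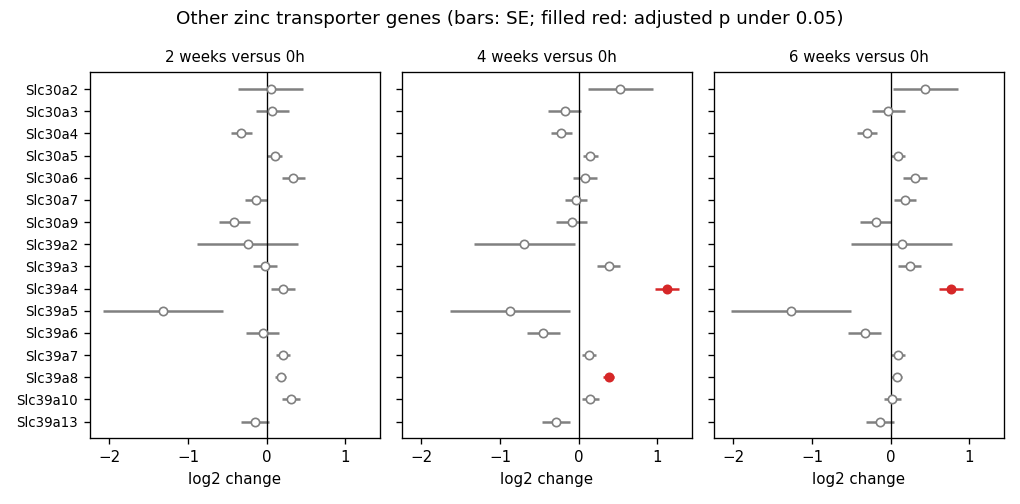
Log2 change against 0h (x axis) of the 16 other zinc transporter genes at 2, 4 and 6 weeks, 1 panel each; bars are SE and filled red points have an adjusted p under 0.05 (limma). Slc39a4 is called at 4 and 6 weeks (1.12 and 0.77), Slc39a8 at 4 weeks (0.38), and no gene of the list is called lower in these fits.

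Of 5 transcripts reported in mouse cells to respond to zinc or to Mtf1, other than metallothioneins and Slc30a1, 2 rose in every fed group. Gclc, the catalytic subunit of the enzyme that starts glutathione synthesis, had signals of 1375, 1523 and 1438 at 0h and 2939 to 3814 on the fed arrays. It rose 2.56-fold, 2.12-fold and 2.54-fold at 2, 4 and 6 weeks (1.36 ± 0.07, 1.08 ± 0.07 and 1.34 ± 0.07, adjusted p = 2.13e-06, 5.72e-06 and 1.38e-06). Csrp1, a protein with zinc-binding LIM domains, had signals of 1106, 1320 and 1121 at 0h and 2088 to 2809 on the fed arrays. It rose 1.79-fold, 2.04-fold and 2.36-fold (0.84 ± 0.09, 1.03 ± 0.09 and 1.24 ± 0.09, adjusted p = 0.000165, 4.66e-05 and 1.37e-05). For both genes all fed arrays were above 0h, and the calls held in 22 of 22 alternatives.

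Of the 5 genes of this list, 2 rose and 1 fell at 2 weeks, and 2 rose at 4 and at 6 weeks, with median changes of 0.17, -0.23 and 0.27. Of all genes, 13.6% were higher and 10.9% lower after 2 weeks, 12.4% higher and 13.2% lower after 4 weeks, and 12.6% higher and 10.6% lower after 6 weeks. The gene that fell was the selenoprotein gene Selenoh (-0.28 ± 0.08, adjusted p = 0.0346), a call lost in 9 of 22 alternatives, up to 0.116. Ndrg1, a stress-responsive gene, was not called against 0h (0.17 ± 0.12, -0.29 ± 0.12 and 0.27 ± 0.12), nor was Pgf, a placental growth factor.

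The transcripts whose course over the 12 arrays was most like that of the metallothioneins included genes of lipid handling. Likeness was Pearson's r of log2 signals with the bright probe set, among 1746 probe sets whose group means spanned at least 1, and since the arrays lie in 4 groups it describes the group pattern. For Mt1 those closest to it included Sdr42e1, a dehydrogenase family member (0.988), Mt2A (0.984) and Thrsp, a thyroid-hormone-responsive lipogenic protein (0.971). For Mt2A they included Thrsp (0.989), the phospholipase Plaat3 (0.984), Mt1 (0.984) and Sdr42e1 (0.984). Mean signals of Plaat3 were 8426, 3390, 2448 and 4184 at 0h, 2, 4 and 6 weeks, so that like the bright Mt1 probe set and Mt2A it was lowest at 4 weeks. Thrsp, also lowest at 4 weeks, had mean signals of 11367, 6481, 5215 and 6894.

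Markers of other liver cells also moved between the groups. Macrophage markers had summed signals of 26909 to 27349 at 0h, then 31756 to 33185 after 2 weeks, 20353 to 21330 after 4 weeks and 22541 to 24929 after 6 weeks, lowest at 4 weeks as the bright Mt1 probe set and Mt2A were. Of the 8 genes 2 were higher at 2 weeks, 6 lower at 4 weeks and 3 lower at 6 weeks than at 0h, beside 13.6%, 13.2% and 10.6% of all genes in these directions. The sum over 8 stellate cell markers, most of it from Col3a1 (3492 to 3604 at 0h), was 5512 to 5628 at 0h. It was 8901 to 9239 after 2 weeks, 5740 to 5898 after 4 weeks and 5014 to 5181 after 6 weeks, highest at 2 weeks. Of these 8 genes 6 were higher at 2 weeks (13.6% of all genes). None was called at 4 weeks (12.4% higher and 13.2% lower). At 6 weeks 2 were higher, among them Dcn (0.78), and 3 lower, among them Col3a1 (-0.30), beside 12.6% and 10.6% of all genes. The 4 red cell genes, with most of their signal from Hbb (25110 to 28121 at 0h), summed to 26528 to 29671 at 0h. Their sums were 34509 to 36323 after 2 weeks, 29805 to 32838 after 4 weeks and 26814 to 28291 after 6 weeks. Of the 4 genes 3 were higher at 2 weeks, 1 higher at 4 weeks and 1 lower at 6 weeks (13.6%, 12.4% and 10.6% of all genes). Of the 10 hepatocyte markers, Hnf4a, a transcription factor of hepatocytes, was lower at 2, 4 and 6 weeks (-0.77, -1.0 and -0.87), and the apolipoprotein Apoa1 was higher at 2 weeks (0.44) and lower at 6 weeks (-0.38). The other 8 were not called against 0h. The part of these cell types in the metallothionein levels was not tested.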

How the data were processed

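Total RNA of 12 liver samples was hybridised to Affymetrix rat whole-genome arrays. The deposited values are signal intensities on a linear scale, 1 per probe set, made with GCOS 2.0 per the submitters' processing notes and scaled to a common trimmed mean, from the values. The deposited sheet also has columns that are, per the file headers, log2 and linear ratios of each fed array over each 0h array, made by the authors and not used here. Detection calls were not used here.

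Of 31099 probe sets, 57 controls were left out. Symbols came from the sheet and were updated through RefSeq's GRCr8 gene table, by current symbol for 15176 probe sets, older symbol for 3208 and accession for 35; 1479 were kept, 23 had several and 11121 none. Signals became log2(signal + 1); the added 1 shrinks changes of dim probe sets. Probe sets with a mean above the 30th percentile (5.45) were tested, 21729 in all. The 12 arrays were fitted together in limma 3.58.1 (R 4.3.3), 1 mean for each group and 8 residual degrees of freedom, followed by eBayes, with Benjamini-Hochberg adjustment within each of 6 comparisons and calls at an adjusted p under 0.05. A list gene is its brightest probe set, and dim means under the array's 30th percentile. For the probe sets of Mt1, bright and dim only tell them apart by signal. SEs of the members are from the group SDs, except in the tested step, where they are limma's. The fitting procedure was tested on simulated data.

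The members and lists were chosen with earlier results of these data known. Named were all probe sets of the members, the genes of the zinc transporter, other metallothionein and zinc-responsive lists, up to 4 of the largest called changes of each further list, and the 5 characterised genes most like each metallothionein, of which some are not reported here; Cyp2c12, Cyp2c11 and Nr1d1 were added with their values known. Alternatives were quantile normalization, median centring, a pseudocount of 16, a filter at the 50th percentile or none, other rules for probe sets, limma's trend and robust options, a replicate block and leaving out each array.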

Additional observations from a re-analysis of the deposited data

Results flagged for a closer look

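Several step changes between fed groups passed the test of the difference itself, so that the effect against 0h differed between feeding times. They concern genes outside the 5 members. Slc39a4 rose from 2 to 4 weeks by 0.92 on the log2 scale, and Slc39a8 changed from 4 to 6 weeks by -0.30. Gclc changed by -0.27 from 2 to 4 weeks (adjusted p = 0.0331, lost in 12 of 22 alternatives, up to 0.174) and by 0.26 from 4 to 6 weeks (adjusted p = 0.0473, lost in 15 of 22, up to 0.189). Ndrg1 changed by -0.46 from 2 to 4 weeks (adjusted p = 0.0405, lost in 16 of 22, up to 0.741) and by 0.57 from 4 to 6 weeks (adjusted p = 0.0207, lost in 5 of 22, up to 0.824). Selenoh was higher at 6 than at 2 weeks by 0.35 (adjusted p = 0.0342, lost in 10 of 22, up to 0.115), and Csrp1 by 0.40 (adjusted p = 0.0264, lost in 8 of 22, up to 0.085). Gclc and Ndrg1, each by its brightest probe set, shared with the bright Mt1 and Mt2A probe sets the direction of both steps. A second Ndrg1 probe set, whose arrays spread widely, did not share the later step. It differed by -0.17 ± 1.07 (SE) from 2 to 4 weeks and by -0.10 ± 1.05 from 4 to 6 weeks.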

How the results depend on the processing

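All 3 metallothionein probe sets stayed below 0h in every fed group under each alternative run. Mt2A moved by more than its array spread with quantile normalization (-2.21, -3.15 and -2.18 at 2, 4 and 6 weeks) and with median centring (-3.02 at 4 and -2.07 at 6 weeks); leaving out arrays gave -2.16 to -2.13, -3.11 to -3.07 and -2.13 to -2.10. Leaving out arrays gave -1.41 to -1.27, -2.53 to -2.39 and -1.66 to -1.52 for the bright Mt1 probe set. Small differences changed sign. The brighter Slc39a14 probe set at 6 weeks against 0h was -0.02 with quantile normalization and -0.07 to 0.10 leaving out arrays (negative without 0h replicate 2 or 6w replicate 1). Without single arrays, the brighter Mtf1 probe set at 2 weeks against 0h ranged from -0.13 to 0.01 and the dimmer one at 6 weeks from -0.03 to 0.35. The brighter Mtf1 probe set from 4 to 6 weeks was -0.01 with quantile normalization, -0.02 with median centring and -0.03 to 0.04 leaving out arrays.

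Slc30a1 from 4 to 6 weeks passed with a stricter filter, at the 50th percentile (0.40, adjusted p = 0.0279), with 1 probe set per gene (0.40, 0.0324), and trend and robust (0.40, 0.0148); leaving out arrays gave 0.30 to 0.51. Zinc transporter genes called at 2 weeks against 0h were 0 in the main analysis and 1 with quantile normalization, the filter at the 50th percentile, or trend and robust, and 0 to 1 leaving out arrays. At 4 weeks against 0h leaving out arrays gave 2 to 3, the third being Slc39a6, called lower without 4w replicate 3 (-0.68, adjusted p = 0.0348); quantile normalization added Slc39a3, higher (0.49, adjusted p = 0.0447). From 2 to 4 weeks 2 were called with 1 probe set per gene or with trend and robust. From 4 to 6 weeks 0 were called with no filter or with the replicate block, and 0 to 1 leaving out arrays. Between 6 and 2 weeks 1 was called with the filter at the 50th percentile, 1 probe set per gene, trend and robust, or the mean of a gene's probe sets, and 0 to 1 leaving out arrays.

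Probe sets called from 2 to 4 weeks were 1718, against 1076 with no filter, 2592 with trend and robust and 1032 to 1607 leaving out arrays. From 4 to 6 weeks they were 1323, against 788, 2044 and 778 to 1163, and between 6 and 2 weeks 1383, against 788, 2114 and 781 to 1346. With median centring the split at 4 weeks against 0h was 2503 higher and 1728 lower (main 2120 and 2671), and from 2 to 4 weeks 680 and 656 (main 678 and 1040). Same-numbered arrays deviated from their group means with correlations of -0.04 to 0.06, so the numbers did not pair the arrays; with the replicate block 4219, 4309 and 3810 probe sets were called at 2, 4 and 6 weeks against 0h. Causes of these shifts were not tested. With 3 technical arrays a group, no value measures the spread between rats, and dim probe sets such as the second of Mt1 are limited by background.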

Other observations

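Lists of genes known to respond to other inducers of metallothioneins are given beside the shares of all genes called, which were 13.6% higher and 10.9% lower after 2 weeks, 12.4% higher and 13.2% lower after 4 weeks, and 12.6% higher and 10.6% lower after 6 weeks. Of 9 tested genes of a glucocorticoid-responsive list, 3 rose and 3 fell at 2 weeks, 2 rose and 4 fell at 4 weeks, and 2 rose and 4 fell at 6 weeks against 0h, with medians of 0.02, -0.42 and -0.36. Tat, the tyrosine aminotransferase induced by glucocorticoids, fell 2.30-fold at 4 weeks (-1.20 ± 0.06, adjusted p = 2.6e-06) and rose 1.79-fold from 4 to 6 weeks (0.84, adjusted p = 6.86e-05). The kinase Sgk1 fell 2.45-fold at 4 weeks (-1.29 ± 0.07, adjusted p = 3.38e-06) and rose 2.47-fold from 4 to 6 weeks (1.30, adjusted p = 8.65e-06). These 2 of the 9 genes had their lowest means at 4 weeks, and the other genes of the list did not. The phosphatase Dusp1 was lower at all 3 times (-1.79, -0.87 and -1.55), and the cell cycle inhibitor Cdkn1a higher (2.16, 2.12 and 1.55).

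Of 14 genes of an interleukin-6-responsive list, 3 rose and 2 fell at 2 weeks, 4 fell at 4 weeks and 1 fell at 6 weeks, with medians of -0.02, -0.13 and -0.08; at 2 and 6 weeks the shares lower were near those of all genes. The receptor Il1r1 was lower at all 3 times (-1.87, -1.80 and -1.31). The 3 genes that rose at 2 weeks did so by 0.49 to 1.06. No gene of the list was called higher at 4 or 6 weeks. Of 9 tested genes of copper handling, 2 fell at 2 weeks, 1 rose at 4 weeks and none was called at 6 weeks (limma). At 4 and 6 weeks these calls were no more than the shares of all genes. With an unadjusted p under 0.05, 1 was higher and 1 lower at 6 weeks, a threshold at which all genes were not counted. The copper importer Slc31a1 fell at 2 weeks (-0.45 ± 0.08, adjusted p = 0.00262), as did Ccs, the copper chaperone of superoxide dismutase (-0.30 ± 0.07, adjusted p = 0.0151). The copper chaperone Atox1 rose at 4 weeks (0.29 ± 0.06, adjusted p = 0.011).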
